A study of Mus musculus with 16 samples.

Results

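The 10 genes described here encode the enzymes that turn serine into sphingolipids and phosphatidylserine: Sptlc1, Sptlc2, Sptssa, Kdsr, Cers2, Cers5, Cers6, Degs1, Ptdss1 and Ptdss2. They were chosen by name for their place in these pathways, and all 10 were found among the 43430 genes of the count table and were among the 11004 genes that passed the filter on low counts. The cells were bone marrow-derived macrophages of C57BL/6J mice, grown from marrow with 20 ng/mL macrophage colony-stimulating factor and harvested on day 6. There were 4 groups of 4 RNA-seq libraries: LPS-treated cells in medium without serine, untreated cells without serine, LPS-treated cells in complete medium and untreated cells in complete medium. LPS, the bacterial lipopolysaccharide that activates macrophages, was added at 100 ng/mL, and the RNA comes from cells 4 h past that addition. All cells shared the same strain, growth factor and basal medium. The labels number the libraries 1 to 4 within each group and do not say that these numbers are separate animals, so the p-values reflect only how these libraries vary, part of which may be technical. In every group replicate 1 had at least 1184 Y-linked counts and no Xist, and replicates 2 to 4 had at most 1 Y-linked count and at least 351 of Xist, so the libraries do not all come from 1 animal.

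Sphingolipid synthesis begins on the endoplasmic reticulum when serine palmitoyltransferase joins serine to palmitoyl-CoA. The product is reduced by KDSR, joined to a fatty acid by a ceramide synthase and desaturated by DEGS1 to give ceramide, the base of sphingomyelin and the glycosphingolipids. Phosphatidylserine is made by another use of serine, in which PTDSS1 and PTDSS2 exchange it for the head group of phosphatidylcholine or phosphatidylethanolamine. In macrophages, engagement of the LPS receptor is known to raise de novo sphingolipid synthesis, and phosphatidylserine at the cell surface is known as a signal for engulfment.

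Library totals ranged from 2871477 to 10043362 gene counts, and the number of genes with a count from 12900 to 16031. Both low ends belonged to 1 library, replicate 4 of the untreated cells without serine, in which the 20 most abundant genes took 23.1% of counts, against 12.3% to 17.3% in the other 15 libraries. It stood apart from its group for several of the 10 genes, so values that rest on it are given with and without it, and it is called the shallow library. The treatment marks moved with their labels. Tnf averaged 1200 ± 222 CPM with LPS and 15.9 ± 5.82 CPM untreated in cells without serine, and 1290 ± 323 against 13.1 ± 2.83 CPM in cells with serine (SD, n = 4; CPM, counts relative to library size, scaled by TMM). Asns, a target of the amino acid starvation response, averaged 226 ± 43.7 CPM without serine and 87.3 ± 27.0 CPM with serine in LPS-treated cells (SD, n = 4), and 79.4 ± 20.6 against 28.2 ± 9.19 CPM in untreated cells. All 8 macrophage markers were present, at a summed 16200 to 26800 CPM in every library. The summed markers of T and NK, B, and mast cells were at most 0.863 CPM in every library, those of neutrophils 8.4 to 108 CPM and those of stromal cells 0.696 to 23.7 CPM. The 5 dendritic cell markers summed to 8.96 to 11.9 CPM with LPS against 1.54 to 2.08 CPM without serine, and to 12.4 to 15.4 CPM against 0.557 to 2.02 CPM with serine. Cd209a, one of these markers, was at 0 in every group but LPS-treated cells without serine, and the part of dendritic cells in the results was not tested. In bulk samples, fewer cells of a type and less RNA per cell cannot be told apart.

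The promoters of 3 genes are shown because these belong to the gene with the largest rise among the 10, to the LPS-higher serine palmitoyltransferase subunit, and to the LPS-lower small subunit of the same enzyme. Each is the 250 bases before the RefSeq start in GRCm38.p6 on the gene's own strand, and capitals mark matches to the motifs listed after them. The windows are chr2:68861191-68861440 on the plus strand for Cers6, chr12:87388356-87388605 on the minus strand for Sptlc2 and chr12:54656573-54656822 on the minus strand for Sptssa.
Cers6: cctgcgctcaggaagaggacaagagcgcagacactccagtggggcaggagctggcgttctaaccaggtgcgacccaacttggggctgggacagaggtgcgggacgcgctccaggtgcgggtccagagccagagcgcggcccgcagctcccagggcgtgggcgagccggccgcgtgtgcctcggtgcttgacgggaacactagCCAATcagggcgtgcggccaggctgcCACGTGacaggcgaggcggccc
Sptlc2: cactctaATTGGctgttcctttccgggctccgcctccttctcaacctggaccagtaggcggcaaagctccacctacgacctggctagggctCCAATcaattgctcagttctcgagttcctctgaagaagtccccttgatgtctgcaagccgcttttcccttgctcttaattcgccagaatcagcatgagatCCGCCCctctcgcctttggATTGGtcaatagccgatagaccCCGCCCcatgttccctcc
Sptssa: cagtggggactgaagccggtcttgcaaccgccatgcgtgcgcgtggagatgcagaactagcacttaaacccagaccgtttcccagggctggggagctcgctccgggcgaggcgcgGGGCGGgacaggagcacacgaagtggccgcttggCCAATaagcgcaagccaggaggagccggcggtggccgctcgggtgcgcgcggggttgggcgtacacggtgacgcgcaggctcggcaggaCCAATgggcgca
Of the 10 genes, 9 had such a window in the table, which holds 32851 windows in all, and both strands were searched. The CCAAT box (CCAAT) was in 33.8% of all windows and the GC box (GGGCGG) in 32.7%, and they were found for 5 and 6 of the 9 genes. The E-box (CACGTG) was in 6.02% of all windows and in those of Cers2, Cers6 and Degs1. The NF-kB consensus was in 3.9% of all windows and, among the 9 genes, in that of Degs1. The interferon element (2.98% of all windows), the AP-1 site (TGANTCA, 6.75%) and the amino acid response element (TGATGNAA, 3.45%) matched none of the 9 genes' windows. In the Cers6 window the CCAAT box began 48 bases before the start and the E-box 22 bases before it. The Sptlc2 window held 3 CCAAT boxes and 2 GC boxes, the Sptssa window 2 and 1. A match is a description of letters and not a site.

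LPS changed several steps of the ceramide route in opposite directions. In cells with serine, Sptlc2, Cers6 and Degs1 rose and Kdsr, Cers5 and Ptdss2 fell, 3 higher and 3 lower of 10 by the quasi-likelihood test of edgeR, adjusted by Benjamini-Hochberg over all 11004 genes. The same test called 27.6% of all genes higher and 28.2% lower. In cells without serine, Sptlc2 and Cers6 rose and Sptssa, Kdsr and Cers5 fell, 2 higher and 3 lower, where 27.1% of all genes were called higher and 29.7% lower. The share of the 10 genes called, 5 without serine and 6 with serine, was near that of all genes, so the count itself is no result about them. With total-count scaling the median of all genes shifted by -0.58 without serine and -0.62 with serine, the share of calls that were higher was 20.4% and 20.6% in place of 47.7% and 49.5%, and the 10 genes gave 2 higher and 6 lower without serine and 2 higher and 7 lower with serine. The median log2 fold change of the 10 was -0.01 without serine and -0.06 with serine, beside -0.12 and -0.03 over all genes tested. The 2 comparisons use different libraries, fitted together, and the serine withdrawals use the same libraries again.

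**Figure D1:**
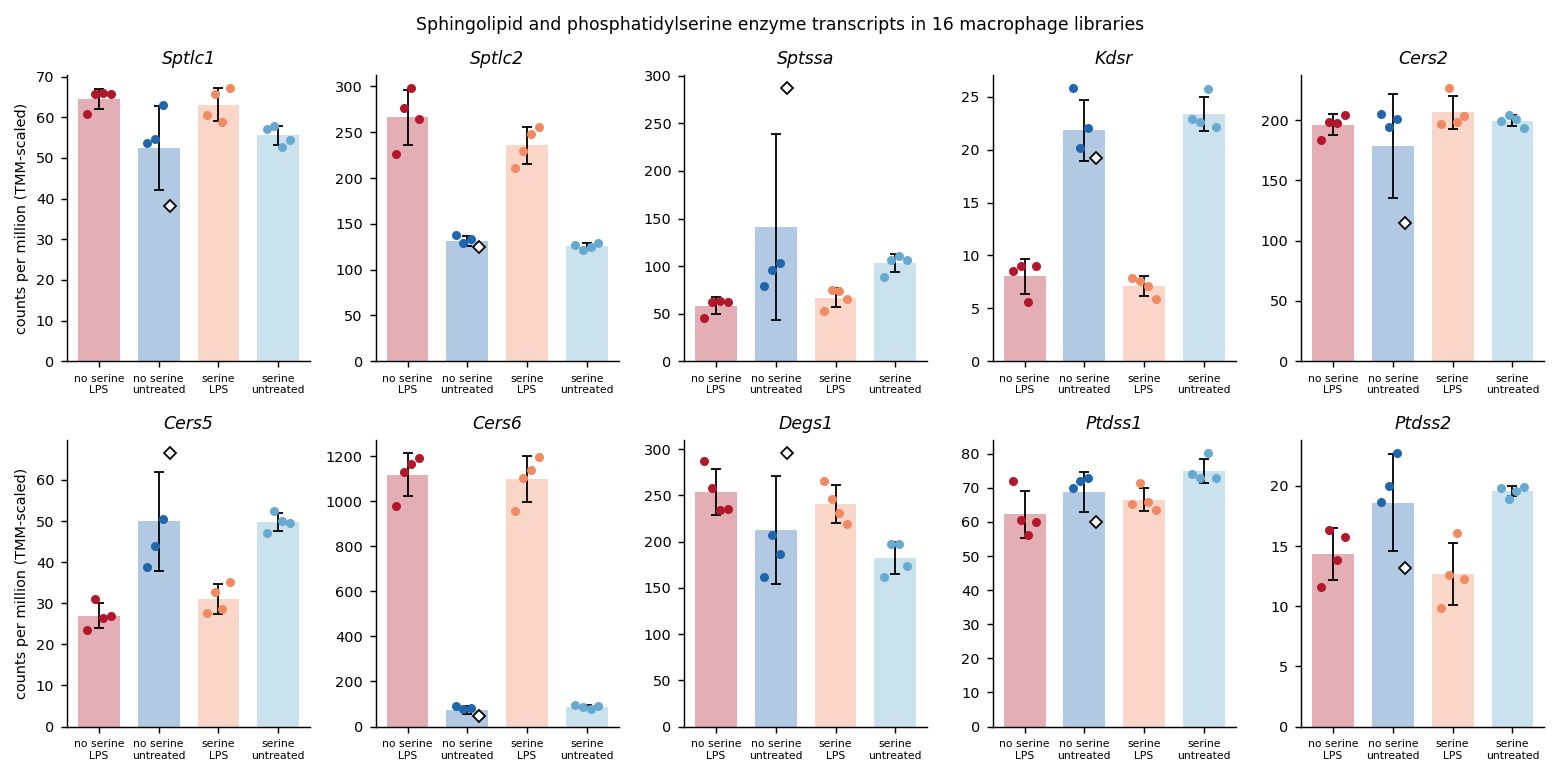
Levels of the 10 enzyme transcripts in TMM-scaled CPM (y axis from 0) in the 4 groups of 4 libraries. Points are libraries, bars group means and whiskers SD; the open diamond is the shallow library, replicate 4 of the untreated cells without serine. Cers6 lies at 956 to 1200 CPM in all 8 LPS-treated libraries and at 46.9 to 95.9 CPM in all 8 untreated ones.

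The serine palmitoyltransferase subunits did not move together. Sptlc2 (chr12:87305058-87388355, minus strand), which with Sptlc1 forms the catalytic core and carries the cofactor-binding residue, was at 226, 277, 298 and 264 CPM with LPS and at 138, 129, 134 and 125 CPM untreated in cells without serine (replicates 1 to 4). In cells with serine it was at 210, 229, 248 and 255 CPM with LPS and at 127, 121, 124 and 130 CPM untreated. All LPS-treated libraries lay above all untreated ones, and the log2 fold changes were 1.02 ± 0.10 (SE, n = 4 per group; edgeR adjusted p = 3.33e-07) without serine and 0.91 ± 0.10 (edgeR adjusted p = 1.16e-06) with serine. Sptlc1 (chr13:53332716-53377365, minus strand), the partner subunit, did not pass the threshold, at 64.5 ± 2.53 CPM with LPS and 52.4 ± 10.4 CPM untreated without serine (SD, n = 4), and at 63.0 ± 4.06 against 55.5 ± 2.34 CPM with serine. Its log2 fold changes were 0.29 ± 0.12 (edgeR adjusted p = 0.0518) and 0.18 ± 0.12 (edgeR adjusted p = 0.222), and its groups with serine did not overlap.

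Sptssa (chr12:54645374-54656572, minus strand), the small subunit that stimulates the enzyme, went the other way. Without serine it was at 45.2, 62.6, 63.0 and 62.8 CPM with LPS and at 79.1, 96.2, 103 and 287 CPM untreated, where the value of 287 CPM is the shallow library. With serine it was at 53.1, 75.3, 74.0 and 65.5 CPM with LPS and at 89.0, 106, 110 and 107 CPM untreated. In both media every LPS-treated library lay below every untreated one. The log2 fold change was -1.26 ± 0.30 without serine (edgeR adjusted p = 0.0023) and -0.62 ± 0.30 with serine (edgeR adjusted p = 0.0929, and 0.0464 with replicate number as a block). With the block and without the shallow library both were called, at -0.69 ± 0.07 (edgeR adjusted p = 2.24e-08) and -0.63 ± 0.06 (edgeR adjusted p = 1.57e-08). An annotated microRNA gene, Mir1892, shares 5.3% of the exonic bases of Sptssa. Within libraries, the Sptlc2 to Sptlc1 ratio per length averaged 0.862 with LPS and 0.54 untreated without serine, and 0.785 against 0.474 with serine, with the gene lengths deposited with the counts. With exonic bases of GENCODE vM21 these averages were 1.80 against 1.13, and 1.64 against 0.989. The Sptssa to Sptlc1 ratio averaged 1.72 with LPS and 5.9 untreated without serine, the second value being 3.1 without the shallow library, whose ratio was 14.3. With serine it averaged 2.04 against 3.55. For both ratios the LPS-treated and untreated libraries did not overlap in either medium. None of 28 such ratio tests passed after Benjamini-Hochberg adjustment (exact permutation test, two-sided, n = 4 per group, p = 0.0286 before and 0.0616 after adjustment for these), 0.0286 being the smallest p that 70 arrangements allow. With every LPS ratio at that smallest p and no withdrawal ratio there, none would pass, so this outcome says nothing about the LPS ratios.

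Transcripts of the 2 other isoforms of these subunits were not detected: Sptlc3 and Sptssb had 0 counts in all 16 libraries.

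Kdsr (chr1:106720459-106759727, minus strand), the reductase of the second step, fell most among the 10 genes in both media. Without serine it was at 8.52, 9.02, 5.61 and 8.96 CPM with LPS and at 25.8, 20.2, 22.1 and 19.2 CPM untreated. With serine it was at 7.89, 7.6, 7.11 and 5.85 CPM with LPS and at 22.9, 22.6, 25.8 and 22.1 CPM untreated. The groups lay far apart, with log2 fold changes of -1.45 ± 0.16 (edgeR adjusted p = 8.13e-07) and -1.71 ± 0.16 (edgeR adjusted p = 1.09e-07), the larger of which is a 3.27-fold lower level. Per length it was the least abundant of the 10 transcripts with LPS, at 0.919 RPKM without serine and 0.814 RPKM with serine.

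**Figure D2:**
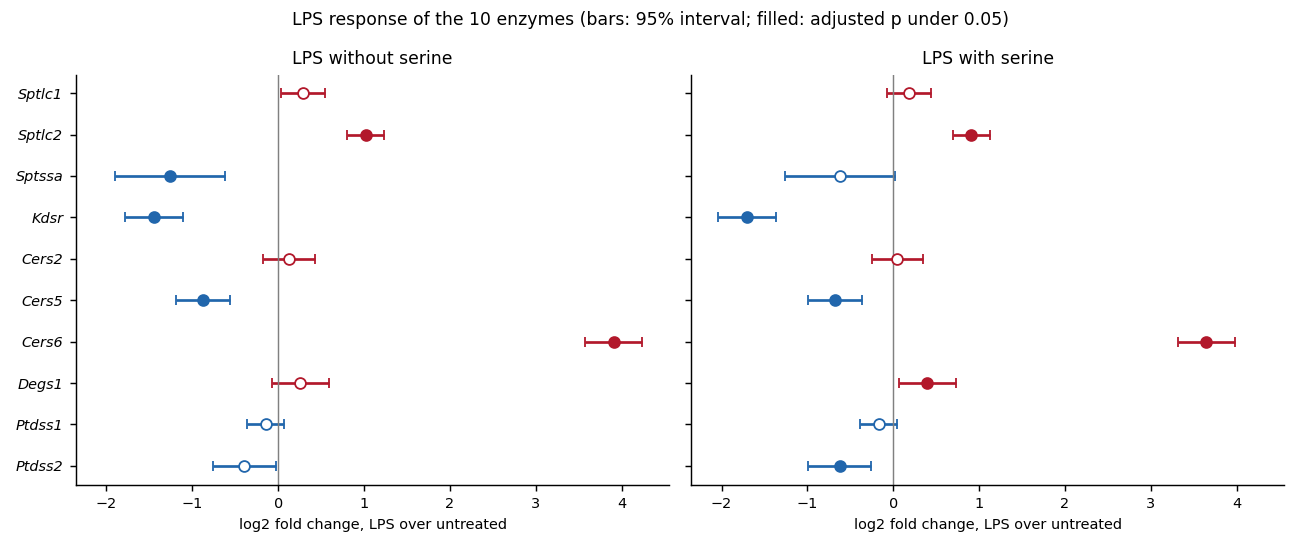
Log2 fold changes of the 10 genes, LPS over untreated (x axis), in cells without serine (left) and with serine (right). Points are edgeR estimates with 95% intervals, red above and blue below 0, filled where the adjusted p is under 0.05. Cers6 stands at 3.91 and 3.64, Kdsr at -1.45 and -1.71.

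The ceramide synthases, which differ in the length of the acyl chain they attach, split. Cers6 (chr2:68861441-69114282, plus strand), which prefers palmitoyl chains, was at 981, 1130, 1170 and 1190 CPM with LPS and at 91.7, 76.9, 80.8 and 46.9 CPM untreated in cells without serine. In cells with serine it was at 956, 1100, 1140 and 1200 CPM with LPS and at 95.9, 85.8, 79.8 and 90.1 CPM untreated. It rose 15-fold without serine (log2 fold change 3.91 ± 0.16, edgeR adjusted p = 2.95e-11) and 12.5-fold with serine (3.64 ± 0.16, edgeR adjusted p = 4.07e-11), with every LPS-treated library above every untreated one. Its log2 fold changes exceeded those of 97.2% and 96.6% of all genes tested. The untreated value of 46.9 CPM without serine is the shallow library. With the block and without that library the log2 fold changes were 3.715 ± 0.087 without serine and 3.638 ± 0.079 with serine.

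Cers5 (chr15:99734881-99772885, minus strand), which also prefers palmitoyl chains, fell. It was at 23.6, 31.0, 26.4 and 26.9 CPM with LPS and at 38.8, 44.0, 50.4 and 66.4 CPM untreated without serine, and at 27.5, 32.8, 28.6 and 35.3 CPM against 47.0, 52.5, 50.0 and 49.4 CPM with serine. The groups did not overlap in either medium, and the log2 fold changes were -0.87 ± 0.15 (edgeR adjusted p = 0.000108) and -0.68 ± 0.15 (edgeR adjusted p = 0.000879). The untreated value of 66.4 CPM without serine is the shallow library. With the block and without that library the log2 fold changes were -0.731 ± 0.091 and -0.688 ± 0.082. Cers2 (chr3:95314791-95323599, plus strand), which makes ceramides with very long chains, was not called. It averaged 196 ± 8.78 CPM with LPS and 178 ± 42.8 CPM untreated without serine (SD, n = 4), and 206 ± 13.7 against 199 ± 4.47 CPM with serine. The 95% intervals of its log2 fold change were -0.17 to 0.43 and -0.25 to 0.35. The shallow library, at 115 CPM, was its lowest value, and exons of genes on the opposite strand, Setdb1 among them, share 6.0% of its exonic bases.

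The make-up of ceramide synthase transcripts differed with LPS. Per length, Cers6 made up 77.7 ± 0.764% of them with LPS and 18.2 ± 2.25% untreated without serine (SD, n = 4), and 76.3 ± 1.70% against 19.8 ± 1.47% with serine. Cers2 made up 19.6 ± 0.708% against 63.0 ± 6.23% and 20.6 ± 1.65% against 64.2 ± 0.986%, Cers5 2.65 ± 0.242% against 18.5 ± 8.24% and 3.05 ± 0.207% against 15.8 ± 0.69%. In the shallow library Cers5 was at 30.7%, against 12.4% to 16.2% in the other libraries of its group. The Cers6 to Cers5 ratio within a library averaged 24.9 with LPS and 1.25 untreated in cells with serine. These shares use the gene lengths deposited with the counts, which are 2.39 times the exonic bases of GENCODE vM21 for Cers2, 2.51 times for Cers5 and 1.42 times for Cers6. With those exonic bases Cers6 made up 67.3 ± 0.979% with LPS and 11.6 ± 1.59% untreated without serine (SD, n = 4), and 65.5 ± 2.13% against 12.6 ± 1.04% with serine, and its ratio to Cers5 with serine averaged 14.0 against 0.706. The change with LPS within a ratio does not depend on the lengths. Cers4 held at most 0.369% of the transcripts in any library, Cers1 had 0 counts and Cers3 had 3 counts over the 16 libraries.

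**Figure D3:**
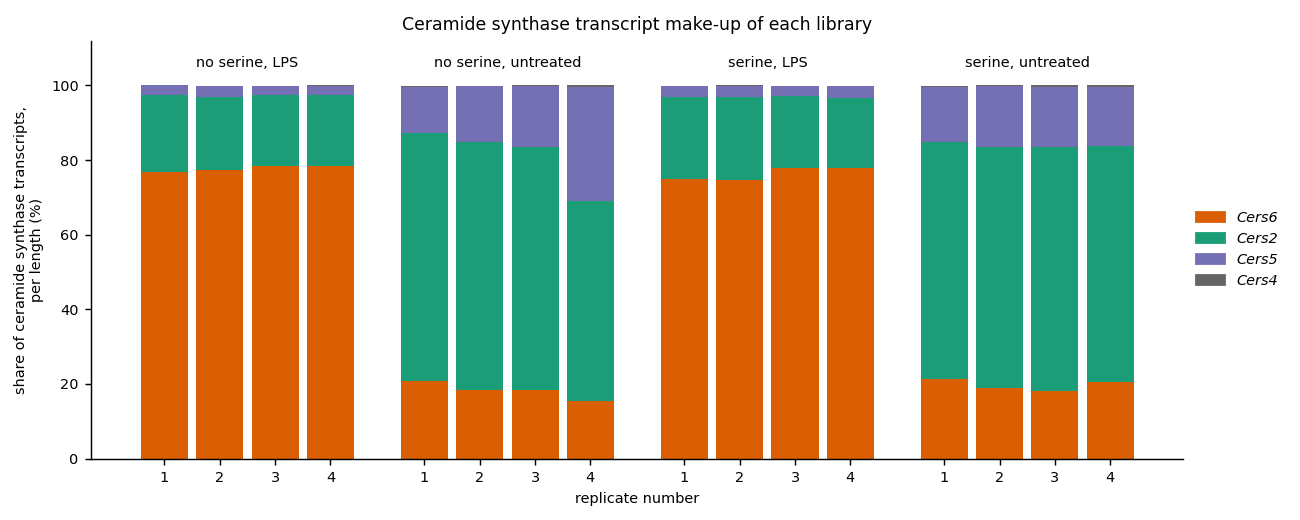
Share of each ceramide synthase among all ceramide synthase transcripts of a library, in percent of counts per deposited length (y axis), for the 16 libraries (x axis, replicate number within each group). Cers6 takes 74.8% to 78.4% in the 8 LPS-treated libraries and 15.3% to 21.4% in the 8 untreated ones, where Cers2 is the largest share.

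Degs1 (chr1:182275772-182282804, minus strand), the desaturase that completes ceramide, rose with LPS in cells with serine, though with total-count scaling its log2 fold change there was -0.22. It was at 287, 258, 234 and 235 CPM with LPS and at 162, 207, 186 and 295 CPM untreated without serine, and at 266, 246, 231 and 219 CPM against 162, 197, 197 and 174 CPM with serine. The groups overlapped without serine only through the shallow library, at 295 CPM. The log2 fold change was 0.26 ± 0.16 without serine (edgeR adjusted p = 0.166) and 0.40 ± 0.16 with serine (edgeR adjusted p = 0.0386). With the block and without the shallow library it was 0.49 ± 0.09 (edgeR adjusted p = 0.000156) and 0.40 ± 0.08 (edgeR adjusted p = 0.000411). The call with serine was lost in 5 of the fits that left out 1 library and when replicate 1 of all groups was left out, with estimates of 0.26 to 0.42.

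Of the phosphatidylserine synthases, Ptdss2 fell with LPS in cells with serine and Ptdss1 was not called in either medium. Ptdss2 (chr7:141122382-141157021, plus strand), which uses phosphatidylethanolamine, was at 11.6, 16.3, 13.8 and 15.8 CPM with LPS and at 18.6, 20.0, 22.7 and 13.2 CPM untreated without serine, the final value being the shallow library. With serine it was at 9.82, 12.6, 16.1 and 12.3 CPM with LPS and at 19.8, 18.9, 19.6 and 19.9 CPM untreated, with no overlap. It fell with serine (log2 fold change -0.62 ± 0.17, edgeR adjusted p = 0.00552) and was at -0.40 ± 0.17 without serine (edgeR adjusted p = 0.0604, and 0.0438 with the block). Ptdss1 (chr13:66932830-66998401, plus strand), which uses phosphatidylcholine, averaged 62.3 ± 6.87 CPM with LPS and 68.7 ± 5.94 CPM untreated without serine (SD, n = 4), and 66.6 ± 3.44 against 74.9 ± 3.46 CPM with serine. Its log2 fold changes of -0.15 ± 0.10 (edgeR adjusted p = 0.234) and -0.17 ± 0.10 (edgeR adjusted p = 0.166) were not called, although with serine every LPS-treated library lay below every untreated one. Exons of Mterf3 and an antisense gene on the opposite strand share 7.4% of its exonic bases.

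With replicate number as a block and the shallow library left out, 9 of the 10 genes were called in each medium, all but Cers2, 4 higher and 5 lower. That fit called 70.7% of all genes without serine and 74% with serine. None of the 10 was called in edgeR's test of whether the LPS response itself differed between the media, in which 0 of 11004 genes (0%) passed. At an unadjusted p under 0.05 none of the 10 and 253 of all genes passed, and DESeq2 called 0 of the 10 and 1 of all genes. The largest estimate was that of Sptssa, -0.64 with a 95% interval of -1.54 to 0.27, and -0.06 with an interval of -0.25 to 0.13 with the block and without the shallow library. That fit called 0.072% of all genes.

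The order of the transcripts by length-corrected level put Cers6 first with LPS and in the lower part without it. In untreated cells with serine it ran from Sptssa (75.7 RPKM, CPM per kilobase of the deposited gene length), Degs1 (43.1), Cers2 (22.7), Ptdss1 (21.9) and Sptlc1 (21.3) through Sptlc2 (10.1), Cers6 (6.99) and Cers5 (5.59) to Kdsr (2.67) and Ptdss2 (2.12). With these lengths, of the neighbours in that order, Cers2, Ptdss1 and Sptlc1 differed by about the spread between libraries, as did Sptlc1 and Cers2, and Ptdss1 and Sptlc2, with LPS. In LPS-treated cells with serine Cers6 was first at 87.4 RPKM, followed by Degs1 (56.8), Sptssa (49.2), Sptlc1 (24.2), Cers2 (23.5), Ptdss1 (19.4) and Sptlc2 (19.0), and then by Cers5 (3.49), Ptdss2 (1.38) and Kdsr (0.814). The authors' deposited FPKM values gave the same rank for all 40 combinations of gene and group, but they come from the same libraries and are no independent check of the order. With exonic bases of GENCODE vM21 as the length, 19 of the 40 ranks were the same. Then Degs1, at 70.5 ± 6.73 CPM per kilobase, and Sptssa, at 67.9 ± 6.30, led in untreated cells with serine and differed by less than their spread (SD, n = 4). Cers6 was first with LPS in both media with either length, and eighth with exonic bases and seventh with deposited lengths in untreated cells. Summed over the 10 genes, the level was 2070 ± 113 CPM with LPS and 949 ± 80.6 CPM untreated without serine (SD, n = 4), and 2030 ± 120 against 922 ± 22.6 CPM with serine. Most of that gap was Cers6: the other 9 genes summed to 950 ± 25.8 CPM with LPS and 875 ± 99.5 CPM untreated without serine, and to 930 ± 28.6 against 834 ± 29.0 CPM with serine (SD, n = 4).

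Serine withdrawal is compared here over the same libraries as the LPS comparisons. It called none of the 10 genes in edgeR's test on all 16 libraries, which includes the shallow library and does not pair libraries by number. The smallest edgeR adjusted p was 0.946 in LPS-treated cells, 0.816 in untreated cells and 0.783 averaged over both. The same test called 0.0636%, 0% and 0.327% of all genes, and Asns and Psat1, an enzyme of serine synthesis, were among the 36 called in the average. At an unadjusted p under 0.05 none of the 10 genes passed in any of the 3. Of all 11004 genes 676 passed it in LPS-treated cells, 548 in untreated cells and 844 in the average. DESeq2 called none of the 10 genes either. Over all genes it called 92 higher and 18 lower in LPS-treated cells. It called 12 and 1 in untreated cells, and 122 and 26 in the average. In LPS-treated cells the estimates lay between -0.20 (Cers5, 95% interval -0.52 to 0.12) and 0.18 (Ptdss2, -0.20 to 0.55). Cers6 was at 1120 ± 94.7 CPM without serine and 1100 ± 102 CPM with serine in LPS-treated cells (SD, n = 4), a log2 difference of 0.02 with a 95% interval of -0.31 to 0.36. In untreated cells the estimates lay between -0.24 (Cers6) and 0.44 (Sptssa), and both ends rest on the shallow library. Without it, and with the block, they were -0.05 (95% interval -0.24 to 0.14) and -0.14 (-0.27 to -0.01).

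Within replicate numbers, Sptssa was lower without serine in 7 of 8 pairs of libraries. In LPS-treated cells the pairs stood at 45.2 without and 53.1 CPM with serine, 62.6 and 75.3 CPM, 63.0 and 74.0 CPM, and 62.8 and 65.5 CPM. In untreated cells they stood at 79.1 without and 89.0 CPM with serine, 96.2 and 106 CPM, 103 and 110 CPM, and 287 and 107 CPM, the last being the pair of the shallow library. In the other 7 pairs the level without serine was 83.1% to 95.8% of that with serine. With the block and without the shallow library, withdrawal averaged over both states gave Sptssa a log2 difference of -0.17 ± 0.04 (95% interval -0.26 to -0.08, edgeR adjusted p = 0.0202), the only 1 of the 10 genes called in that fit. The fit called 8.43% of all genes in the average, 8.3% in LPS-treated and 0.711% in untreated cells, and none of the 10 in either state alone (Sptssa in LPS-treated cells, adjusted p = 0.0567). With all 16 libraries the estimate for Sptssa had the other sign, 0.12 ± 0.21.

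Sptlc2 ran opposite to Sptssa in these pairs, though it was not called. It was higher without serine in 7 of 8 pairs and in all 7 pairs that leave out the shallow library, at 104% to 121% of the level with serine (log2 difference 0.14 ± 0.05, edgeR adjusted p = 0.095, with the block and without the shallow library). Cers5 was lower in 6 of those 7 pairs (log2 difference -0.18 ± 0.06, edgeR adjusted p = 0.0839). The other 7 genes had adjusted p-values of 0.361 or more in that average. Among them Ptdss1 was, like Sptssa, lower without serine in 7 of 8 pairs. Of the 7 pairs that leave out the shallow library it was lower in 6.

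**Figure D4:**
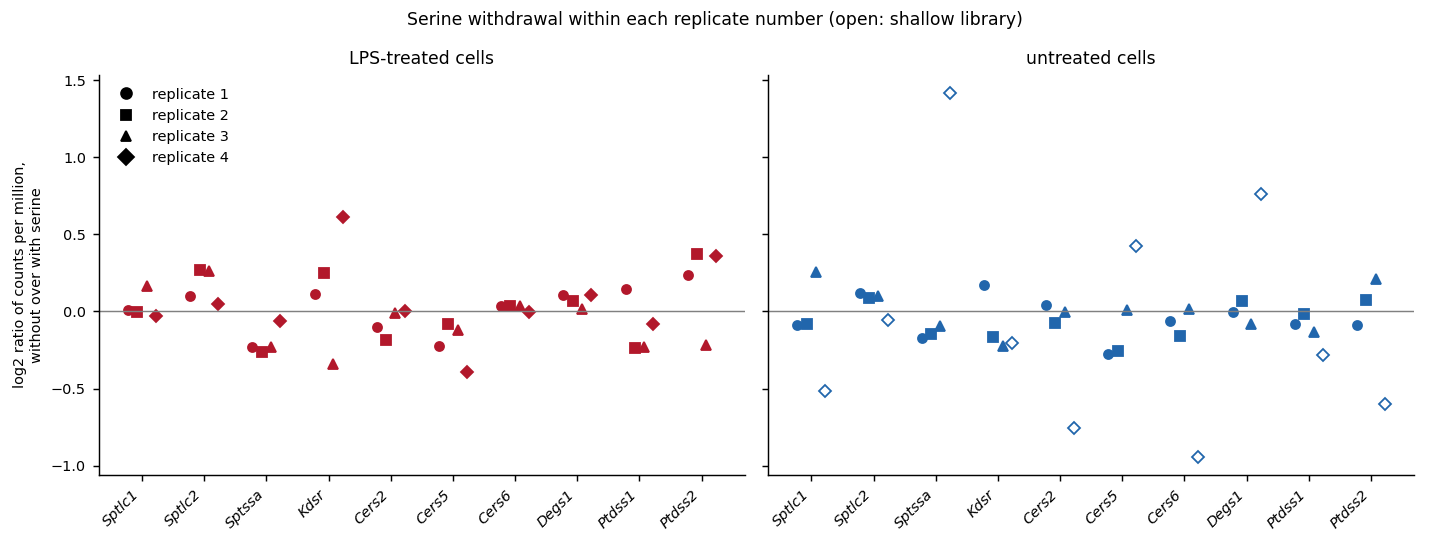
Log2 ratio of CPM without over with serine (y axis) for each of the 10 genes (x axis), within each replicate number, in LPS-treated (left) and untreated cells (right). Marker shapes are replicate numbers and open diamonds the shallow library. Sptssa lies below 0 in all pairs but that of the shallow library, which reaches 1.42.

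The authors' deposited tables of their own comparisons mark the same directions. In cells with serine, the authors' deposited table marks Sptlc2, Cers6 and Degs1 as higher with LPS and Sptssa, Kdsr, Cers5 and Ptdss2 as lower. Of its 11583 genes it marks 3227 as higher and 3182 as lower. In cells without serine, the authors' deposited table marks Sptlc2 and Cers6 as higher and Sptssa, Kdsr and Cers5 as lower. Of its 11573 genes it marks 2213 as higher and 1968 as lower. For the withdrawals, the authors' deposited tables mark none of the 10 genes, and few genes at all. They mark 65 as higher and 20 as lower of 10908 genes in LPS-treated cells. In untreated cells they mark 6 as higher and 0 as lower of 11534.

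Around these enzymes, the genes that regulate or extend the ceramide route were changed by LPS in both directions. The counts of the 5 lists that follow stand beside 27.1% of all genes called higher and 29.7% lower without serine. With serine these shares were 27.6% and 28.2%. Total-count scaling moves the list counts toward lower calls, as it does those of all genes. Under that scaling 15.3% of all genes were called higher without serine and 15.1% with serine, and 6566 and 6407 of 11004 lower. Of 9 other de novo genes 5 were tested, and 1 rose and 3 fell in each medium, against 0 and 3 without serine and 0 and 4 with serine under total-count scaling. Degs2, a desaturase that can also hydroxylate, rose (log2 fold change 1.33 ± 0.33 without serine and 1.29 ± 0.31 with serine), at low levels of 1 to 32 counts per library. Ormdl3, one of the proteins that restrain serine palmitoyltransferase, fell by 1.13 ± 0.16 and 1.05 ± 0.16 on the log2 scale. Ormdl1, another of them, fell by 2.29 ± 0.47 without serine, where the untreated libraries ranged from 11.8 to 69.8 CPM, and by 1.22 ± 0.47 with serine (edgeR adjusted p = 0.0374, lost in 8 other fits). It averaged 5.22 ± 0.147 CPM with LPS and 27.3 ± 28.4 CPM untreated without serine (SD, n = 4), and 5.29 ± 1.09 against 12.2 ± 1.12 CPM with serine. Ormdl2 was not called, at 0.18 ± 0.17 and -0.14 ± 0.17. Degs2 was not called with total-count scaling (edgeR adjusted p = 0.0578 and 0.0642).

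Of 14 genes for complex sphingolipids and ceramide transfer 12 were tested. Without serine 6 rose and 4 fell, and with serine 5 rose and 3 fell. With total-count scaling the counts were 5 higher and 6 lower without serine and 5 higher and 7 lower with serine. Ugcg, which makes glucosylceramide, averaged 115 ± 8.10 CPM with LPS and 22.4 ± 8.53 CPM untreated without serine (SD, n = 4), and 78.5 ± 6.26 against 16.7 ± 3.12 CPM with serine. B4galt5, which makes lactosylceramide, rose by a log2 fold change of 2.24 ± 0.16 and 2.23 ± 0.16. Cerk, ceramide kinase, fell to 65.6 ± 6.71 CPM with LPS against 329 ± 82.8 CPM untreated without serine, and to 46.2 ± 6.09 against 357 ± 24.4 CPM with serine (SD, n = 4).

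Of 23 genes for sphingolipid breakdown and sphingosine phosphate 15 were tested, and 3 rose and 6 fell in each medium. With total-count scaling 3 were higher and 11 lower without serine, and 2 higher and 12 lower with serine. Sphk1, an inducible sphingosine kinase, rose to 12.6 ± 5.93 CPM with LPS against 0.307 ± 0.22 CPM untreated without serine, and to 9.29 ± 2.93 against 0.512 ± 0.194 CPM with serine (SD, n = 4). Its untreated levels were near the floor, at 0 to 0.513 CPM without serine and 0.278 to 0.754 CPM with serine, so the size of the rise is imprecise. S1pr1, a sphingosine phosphate receptor, fell by 2.74 ± 0.15 and 3.04 ± 0.16 on the log2 scale. Gba2, the non-lysosomal glucosylceramidase, fell by 1.86 ± 0.29 with serine. It was also called lower without serine (log2 fold change -1.52 ± 0.30), where its groups overlapped. Smpd2, a neutral sphingomyelinase, fell by 1.68 ± 0.25 without serine and was also called lower with serine (log2 fold change -1.11 ± 0.24).

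Of 12 genes for phosphatidylethanolamine and phosphatidylcholine 10 were tested, with 3 higher and 4 lower in each medium, and 2 higher and 7 lower in each with total-count scaling. Etnk1, ethanolamine kinase, averaged 842 ± 117 CPM with LPS and 75.6 ± 22.2 CPM untreated without serine (SD, n = 4), and 764 ± 103 against 87.4 ± 3.71 CPM with serine. Cept1, which joins the activated head group to diacylglycerol, rose by 1.60 ± 0.13 and 1.62 ± 0.13. Pcyt1b, an enzyme of the choline branch, fell to 0.0814 ± 0.0944 CPM against 1.66 ± 0.935 CPM and to 0.229 ± 0.181 CPM against 2.22 ± 0.756 CPM (SD, n = 4), low levels in every group.

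Of 13 genes for phosphatidylserine transport, exposure and breakdown 12 were tested, with 8 higher and 0 lower without serine and 7 higher and 1 lower with serine. Without the shallow library, in counts added after the data were seen, 8 were higher and 2 lower in both media. With total-count scaling 5 were higher and 2 lower without serine, and 3 and 3 with serine. Xkr8, a scramblase that exposes phosphatidylserine after caspase cleavage, averaged 107 ± 34.1 CPM with LPS and 5.82 ± 0.985 CPM untreated without serine (SD, n = 4), and 122 ± 26.6 against 6.34 ± 0.754 CPM with serine. Plscr1, an interferon-inducible phospholipid-binding protein, rose by 2.33 ± 0.23 and 2.46 ± 0.23 on the log2 scale. Abhd16a, a phosphatidylserine lipase, rose by 1.31 ± 0.13 without serine and 1.44 ± 0.13 with serine. Atp11b, a flippase subunit, rose by 1.58 ± 0.28 without serine and 1.09 ± 0.28 with serine. None of the genes of the 5 lists was called in a serine withdrawal by edgeR's unblocked test on all 16 libraries.

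**Figure D5:**
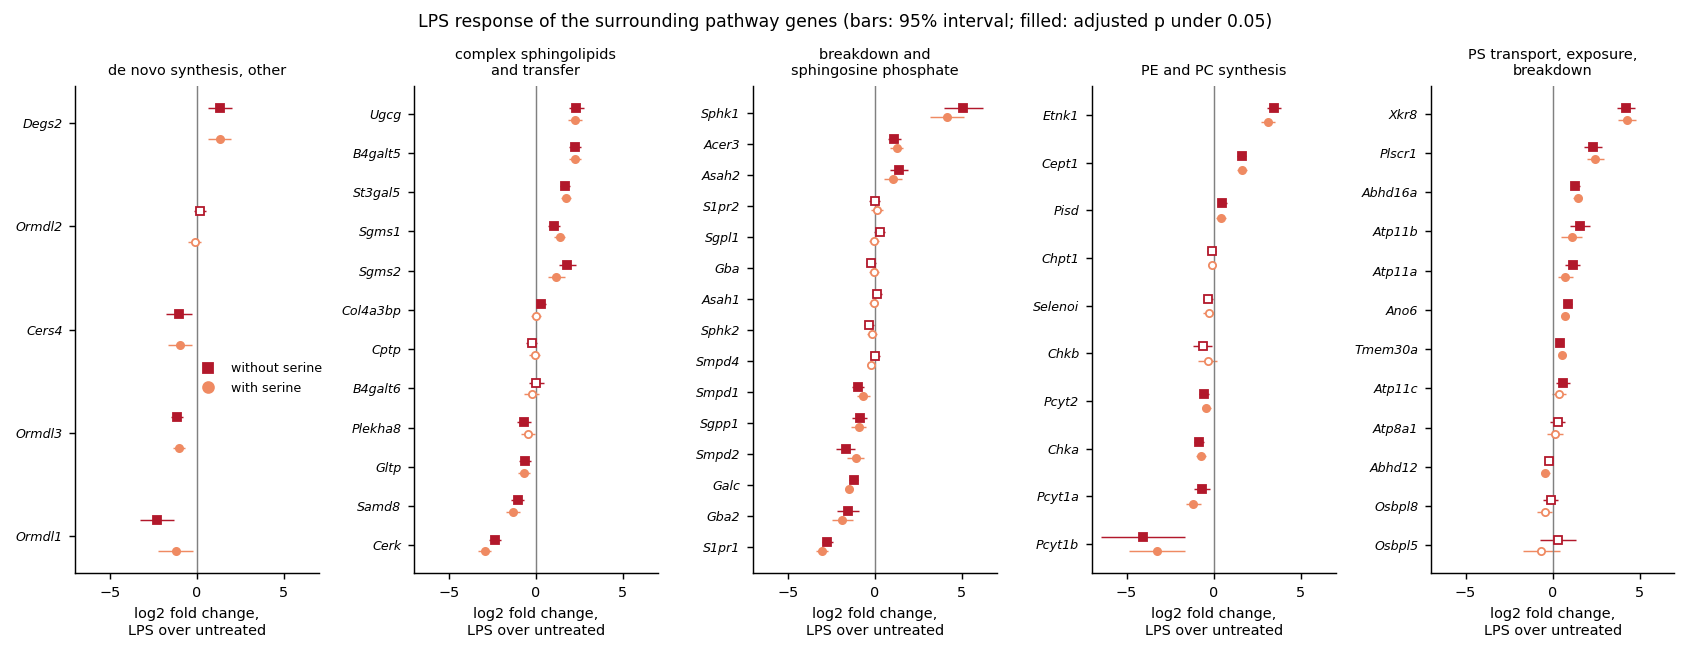
Log2 fold changes, LPS over untreated (x axis), of the tested genes of 5 pathway lists around the 10 enzymes, in cells without serine (squares) and with serine (circles). Bars are 95% intervals and filled marks have an adjusted p under 0.05; PE, PC and PS are phosphatidylethanolamine, phosphatidylcholine and phosphatidylserine. Sphk1 stands at 5.08 and 4.13, Xkr8 at 4.23 and 4.27, Cerk at -2.33 and -2.95.

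Serine withdrawal called some genes of these lists once replicate number was a block and the shallow library was left out. The list counts of that fit were added after the data were seen. In LPS-treated cells that fit called 4 higher and 1 lower of 12 complex sphingolipid genes, 3 higher of 16 breakdown genes, 1 higher of 11 phosphatidylethanolamine and phosphatidylcholine genes and 1 higher of 12 phosphatidylserine transport genes, where it called 8.3% of all genes. In untreated cells it called 1 of the complex sphingolipid genes and 1 of the phosphatidylserine transport genes, both higher, where it called 0.711% of all genes. None of the 5 tested de novo genes outside the 10 was called in either state. Samd8 is a sphingomyelin synthase relative that makes ceramide phosphoethanolamine. It averaged 96.7 ± 10.4 CPM without serine and 63.1 ± 8.22 CPM with serine in LPS-treated cells (SD, n = 4), with no overlap, and 200 ± 62.1 against 155 ± 14.6 CPM in untreated cells. The log2 difference in LPS-treated cells was 0.62 ± 0.19 (edgeR adjusted p = 0.343, 0.0185 without the shallow library, and 1.01e-05 with the block as well). Averaged over both states, Samd8 was also called with the block on all 16 libraries (0.48, edgeR adjusted p = 0.0434). Osbpl8, which exchanges phosphatidylserine against phosphoinositides, averaged 775 ± 64.0 CPM without serine and 572 ± 56.2 CPM with serine in LPS-treated cells (edgeR adjusted p = 0.811, 0.0379 without the shallow library, and 0.000261 with the block as well). In LPS-treated cells with the block and without the shallow library, Pcyt1a, the main cytidylyl transferase of phosphatidylcholine synthesis, was at a log2 difference of 0.52 (edgeR adjusted p = 0.00112, and 0.64 unblocked on all 16 libraries), and S1pr1 at 0.42 (edgeR adjusted p = 0.0286, and 0.573).

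The genes whose profiles over the 16 libraries lay nearest to a member, by Euclidean distance of centred log2 CPM, are given as a description. For Cers6 they included Spred1 (distance 0.5, against a median of 7.9 over all genes) and Daxx (0.574). For Sptlc2 they were Zfp207 (0.358, median 2.77), Rab1a (0.382) and Tcirg1 (0.409). For Kdsr they were Nbr1 (0.707, median 3.42), Zbtb4 (0.722) and Slc37a2 (0.763). For Sptssa they were Blvra (0.44, median 2.89), Aprt (0.473) and Serpinb6a (0.52), and all profiles include the shallow library.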

How the data were processed

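Per the labels' protocols, RNA from 16 libraries was prepared with a kit that does not mark strand, so reads of overlapping genes cannot be told apart. The authors deposited whole-number counts per Ensembl gene for 43430 genes, FPKM values, and, as ratios on a log scale, tables of log2 fold changes and adjusted p-values of their own comparisons. The tools named, per the submitters' processing notes, are STAR, HTSeq, Trimmomatic 0.33, SAMtools and edgeR, and the genome build is mm10; their settings are not given in the sources used here. A further 24 columns that hold values of single samples were left unused. Coordinates are those of the gene in mm10, and promoter windows are from RefSeq.

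Counts were fitted in R 4.3.3 with edgeR 4.0.16 (default filter on low counts with a minimum count of 10, TMM scaling, robust quasi-likelihood, a mean per group over all 16 libraries). P-values are two-sided, adjusted by Benjamini-Hochberg over 11004 genes, with a threshold of 0.05. Log2 CPM profiles used a prior count of 2. The dispersion corresponds to a biological coefficient of variation of 20.9%, and to 7.86% with replicate number as a block and the shallow library left out. Within-library ratios were tested by exact permutation. Ranks by FPKM used the deposited FPKM as they stand. RPKM, shares and ratios use the deposited gene length, whose derivation is not given in the sources used here; exonic bases of GENCODE vM21 were an alternative added after seeing the data. Low counts limit precision: Kdsr and Ptdss2 are the least counted of the 10 genes.

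Same-numbered libraries deviated together: correlations of deviations from group means were 0.125 to 0.415 between LPS-treated and untreated and 0.185 to 0.66 between media, at most 0.141 for other pairs, so the numbers pair the libraries. Replicate 1 had no Xist and at least 1184 Y-linked counts in every group, the others at least 351 Xist and at most 1 Y-linked count. No pair of the 120 differed by less than sampling noise. Alternatives were RLE factors, total-count scaling, no filter, the block, left-out libraries, the compared groups alone and DESeq2 1.42.0. The script was tested on simulated data. Members, lists and named genes (the 3 largest called changes per list and LPS comparison, the smallest p per list in a withdrawal, and the 3 nearest profiles) were chosen with earlier results of these data known. One of the nearest profiles is not reported here. The deposited normalized counts and a comparison of opposite groups were left out.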

Additional observations from a re-analysis of the deposited data

Results flagged for a closer look

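Among 40 combinations of gene and group, 6 had a library far from the other 3, where chance gives about 1 in 20. Of these, 2 were in the shallow library, replicate 4 of the untreated cells without serine: Sptssa at 287 CPM and Cers2 at 115 CPM. In LPS-treated cells without serine, Sptlc1 at 60.7 CPM and Sptssa at 45.2 CPM were low in replicate 1, and Kdsr at 5.61 CPM was low in replicate 3. In untreated cells with serine, Ptdss1 at 80.1 CPM was high in replicate 3.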

How the results depend on the processing

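The calls of Sptlc2, Kdsr, Cers5 and Cers6 in both LPS comparisons held under every alternative run. The calls of Sptssa without serine and of Ptdss2 with serine held under every alternative as well. Of the calls in the main fit only that of Degs1 with serine was lost in some alternatives, and other genes gained a call in some. The replicate block added Sptssa with serine and Ptdss2 without serine and changed no other call of the 10 genes. Degs1 with serine lost its call as given in the report. Total-count scaling turned the log2 LPS fold changes of Sptlc1 to -0.434 with serine and -0.293 without, of Cers2 to -0.566 and -0.46, and of Degs1 to -0.216 and -0.281. The 10 genes had 5 calls in LPS without serine, 8 with total-count scaling, 9 with the block and the shallow library left out, and 5 to 8 when 1 library was left out. The highest of these came without the shallow library.

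The withdrawal estimates of the 10 genes lie near 0 and several change sign. With the block and without the shallow library, Cers2 was at -0.0297 in LPS without serine. In untreated withdrawal the same fit put Sptlc1 at 0.0408, Sptssa at -0.141, Cers2 at 0.00206, Degs1 at -0.0182 and Ptdss2 at 0.0674. In the averaged withdrawal it put Sptlc1 at 0.0376 and Sptssa at -0.171, and called 1 of the 10 genes. In the difference between the withdrawals it put Sptlc1 at -0.00623, Cers2 at -0.0754, Degs1 at 0.096 and Ptdss1 at -0.00897. Cers5 in untreated withdrawal was at 0.00593 with RLE factors, 0.0102 in the compared groups alone and 0.0561 without replicate 1 of all groups. Without replicate 1, Kdsr in the average was at -0.00881 and Ptdss1 in the difference at -0.0473.

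With 1 library left out at a time, Cers2 in LPS without serine ranged from -0.0281 to 0.203. In untreated withdrawal Cers5 ranged from -0.169 to 0.093, Sptlc1 from -0.175 to 0.0358, Sptssa from -0.155 to 0.635, Cers2 from -0.229 to 0.00122 and Ptdss2 from -0.155 to 0.0584. Cers6 in LPS-treated withdrawal ranged from -0.0361 to 0.0738. In the average Kdsr ranged from -0.0078 to 0.108, Sptlc1 from -0.0703 to 0.035 and Sptssa from -0.177 to 0.218. In the difference Ptdss1 ranged from -0.0526 to 0.0732, Sptlc1 from -0.00164 to 0.209, Cers2 from -0.0749 to 0.155 and Degs1 from -0.247 to 0.0595.

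For the level order of the members, 19 of 40 ranks were the same with GENCODE exonic length in place of the deposited length, an alternative chosen after seeing the data.

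Over all genes, serine withdrawal in untreated cells gave 0 calls, against 2 with no low-count filter, 9 with the replicate block, 79 with the block and without the shallow library and 13 by DESeq2. Serine withdrawal in LPS-treated cells gave 7 calls, against 0 with total-count scaling and without replicate 1, 4 with no filter, 35 in the compared groups alone, 98 with the block, 922 with the block and without the shallow library, and 110 by DESeq2, with 0 to 156 when 1 library was left out. Serine withdrawal averaged over LPS states gave 36 calls, against 11 with total-count scaling, 22 with no filter, 13 without replicate 1, 106 with the block, 936 with the block and without the shallow library, and 148 by DESeq2, with 9 to 197 when 1 library was left out. The difference between the withdrawals gave 0 calls, against 8 with the block and without the shallow library and 1 by DESeq2. The upper ends of both ranges came without the shallow library. The causes of these moves were not tested.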
